A study of Mus musculus with 4 samples.

Results

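The 10 genes described here are ones that macrophages use to develop, to recognize and to ingest material, and they were followed in the skin of GSDMD KO and WT mice after bleomycin (BLM), a cytotoxic antibiotic that causes skin fibrosis. They are Csf1r, Csf1, Cd68, Adgre1, Mrc1, Cd163, Msr1, Spi1, Lyz2 and Aif1. The genes were chosen by name with earlier results of these data known, so counts over them are descriptive. All 10 were found among the 24441 genes of the deposited table. Skin RNA was sequenced from 4 female C57BL/6 mice, labelled as 8 weeks old, of which 2 were GSDMD-/- (KO) and 2 were wild type (WT). All of them had received subcutaneous BLM every other day for 28 days, so the comparison is between genotypes under BLM, and no saline-treated library was analysed here. The values are FPKM, fragments counted per gene, divided by transcript length and library size. KO values are given with replicate 1 first. For 2 libraries against 2, exact permutation reaches at best p = 0.333 (two-sided), so genotypes were compared with limma, fitted across 13027 genes on the log2(FPKM + 1) scale. This scale understates the change of low genes. The labels name the mice by genotype and number only, so p-values measure the spread between these libraries.

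Macrophages of the dermis come from blood monocytes and from a resident population, and both depend on signals through the receptor CSF1R, whose ligands are CSF1 and IL-34. The transcription factor PU.1, encoded by Spi1, drives the myeloid program, including Csf1r itself. Scavenger receptors, such as those encoded by Msr1, Cd163 and Mrc1, let macrophages take up modified lipoproteins, haptoglobin-bound hemoglobin and mannose-bearing glycoproteins. In fibrotic skin, macrophages clear debris and release factors that act on fibroblasts.

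The libraries differed in more than genotype. The knocked-out gene, Gsdmd, stood at 14.0 and 18.2 FPKM in the WT mice against 3.53 and 2.26 in the KO mice. KO replicate 2 stood apart from the other libraries on the leading principal component of the tested genes, which held 74.1% of the variance and placed it at 75.4, against 6.17 for KO replicate 1 and -27.7 and -53.9 for WT. It also held 1.78 FPKM in sum of 4 Y-linked genes that were at 0 elsewhere, while the labels give only female mice. The keratinocyte markers that define skin were present in every library, with 8 of 8 detected and sums of 3647 and 2866 FPKM in the WT mice and of 8076 and 5697 FPKM in KO replicates 1 and 2. Of the markers of dermal cells, 7 fibroblast genes summed to 323.6 and 230.6 FPKM in the WT mice, to 511.4 FPKM in KO replicate 1 and to 31.5 FPKM in KO replicate 2. In the same order, 6 endothelial genes summed to 66.7, 98.0, 93.3 and 8.03 FPKM, 6 adipocyte genes to 2122, 5888, 2531 and 224 FPKM, and 6 mast cell genes to 68.0, 70.8, 99.9 and 11.3 FPKM. No gene of these 4 dermal lists was at 0 in any library. Whether these differences in tissue make-up play a part in the macrophage values was not tested, and fold changes of the 10 genes are given below with and without KO replicate 2.

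The macrophage genes were lower in GSDMD KO skin, with Lyz2, Cd68, Csf1r, Adgre1, Spi1, Aif1 and Msr1 at 16.8% to 29.1% of their WT mean. Csf1, Mrc1 and Cd163 differed less, at 73.5%, 50.9% and 91.5%. The median log2 fold change of the 10 genes was -2.13, against 0.11 for all tested genes. A gene was called where its adjusted p was under 0.05 and its log2 fold change beyond 1 in size, and limma called 0 of the 10 genes and 0% of all tested genes. Their adjusted p-values by limma ran from 0.248 to 0.769. With an unadjusted p under 0.05 and a log2 fold change under -1, 6 of the 10 genes were lower in KO mice, against 4.14% of all tested genes. This count rested on the WT libraries too: it was 3 (Cd68, Msr1 and Spi1) without WT replicate 1, against 3.29% of tested genes, and 1 (Msr1) without WT replicate 2, against 1.86%. By the same rule with all libraries 802 genes were higher and 539 lower over the whole table, and after median-ratio scaling, which makes up for the shift of 0.11, 616 were higher and 700 lower. The KO libraries were each under the lower WT library in 8 of the 10 genes, against 20.5% of tested genes, and the exceptions were Mrc1 and Cd163. All 10 genes were above the filter of 1 FPKM in at least 2 libraries. In whole skin, fewer macrophages and less of these transcripts per macrophage cannot be told apart. Cd68 and Csf1r are also named by the study from these same libraries, so their differences are not independent evidence. The same holds for the 10 genes and the lists below as sets, since they were chosen with earlier results of these data known. By staining for the protein of Adgre1, the study also counted fewer macrophages in BLM-treated KO skin than in WT skin, a measure not taken here.

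**Figure D1:**
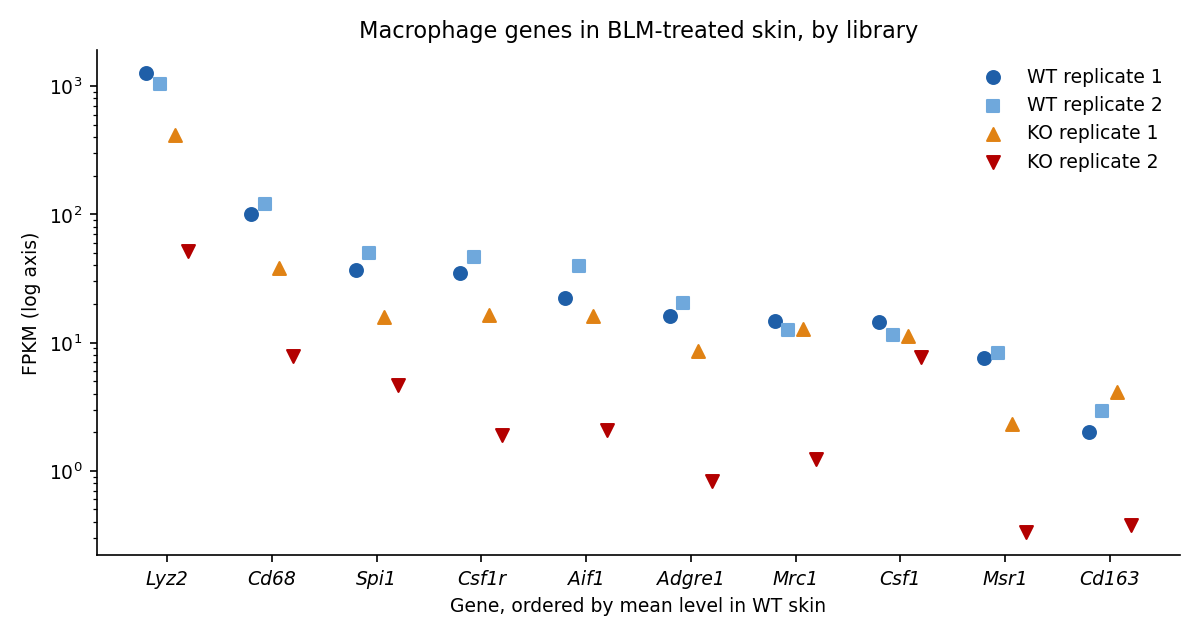
Level of each of the 10 macrophage genes in FPKM (log axis) in the 4 libraries, with 1 point per library and genes ordered by mean WT level. KO replicate 2 is lowest for every gene, and KO replicate 1 lies below both WT libraries for all genes except Mrc1 and Cd163.

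Csf1r, on chromosome 18 of mm9 from 61265226 to 61290793 with 21 exons in its longest annotated transcript, encodes the receptor on which macrophage survival depends. It had 34.6 and 46.7 FPKM in the WT mice, 16.3 FPKM in KO replicate 1 and 1.90 FPKM in KO replicate 2. The KO libraries were thus both below WT, but they differed from each other by a factor of 8.59. The log2 fold change was -2.54 (standard error, SE, 0.85, limma adjusted p = 0.264), and it was -1.25 without KO replicate 2. Exons of Csf1r share 871 bases with Hmgxb3 on the opposite strand, and the strand setting of the authors' counting is not given in the sources used here. The ligand gene Csf1 (chromosome 3, 107543966 to 107563387) had 14.4 and 11.5 FPKM in the WT mice against 11.3 and 7.71 in the KO mice. Keratinocytes, fibroblasts and endothelial cells are known sources of CSF1. The ligand was close to its WT level in KO replicate 1, whose 11.3 FPKM lay just under the lower WT library. Without KO replicate 2 its log2 fold change was -0.17. With all libraries it was -0.42 (SE 0.29, limma adjusted p = 0.461), a difference of the same order as the spread of 2.10 (SD, n = 2) FPKM in WT and 2.55 FPKM (SD, n = 2) in KO mice.

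Spi1, on chromosome 2 from 90936835 to 90955916, encodes PU.1. It stood at 37.0 and 49.8 FPKM in the WT mice against 15.9 and 4.65 in the KO mice, with no overlap between the groups. The log2 fold change was -2.17 (SE 0.56, limma adjusted p = 0.248) and -1.38 without KO replicate 2. Among the 10 genes, Spi1 differed less between the KO libraries than any gene but Csf1, by a factor of 3.41.

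Cd68 encodes a glycoprotein of lysosomes and endosomes that is used as a general macrophage marker, and lies on chromosome 11 from 69477715 to 69479672. Its levels were 99.8 and 121 FPKM in the WT mice against 38.5 and 7.80 in the KO mice. The log2 fold change was -2.57 (SE 0.72, limma adjusted p = 0.248), and -1.49 without KO replicate 2. Adgre1, on chromosome 17 from 57498109 to 57622952, encodes the F4/80 antigen and is listed as Emr1 in the mm9 annotation. It had 16.2 and 20.3 FPKM in the WT mice against 8.59 and 0.837 in the KO mice. At -2.19 (SE 0.79, limma adjusted p = 0.276), its log2 fold change was close to that of Spi1, and it was -0.998 without KO replicate 2. Aif1, on chromosome 17 from 35307937 to 35312946, encodes the calcium-binding protein IBA1. Relative to its mean it varied most between the WT mice, with 22.2 and 39.7 FPKM, and had 16.0 and 2.08 FPKM in KO replicates 1 and 2. The gap between the lower WT library and KO replicate 1 was thus smaller than the gap between the WT libraries, and the log2 fold change was -2.09 (SE 0.84, limma adjusted p = 0.297). It was -0.86 without KO replicate 2.

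Lyz2 encodes lysozyme, an enzyme that cleaves bacterial cell walls, and was the most abundant of the 10 genes. It lies on chromosome 10 from 116714597 to 116719328 and had 1260 and 1037 FPKM in the WT mice against 411.6 and 51.8 in the KO mice. Its log2 fold change of -2.95 (SE 0.96, limma adjusted p = 0.260) was the lowest of the 10, and it was -1.47 without KO replicate 2. The neighboring gene Lyz1 has a coding sequence of 447 bases, of which 425 (95.1%) are identical in Lyz2. Fragments from one gene could therefore have been counted for the other, and Lyz1, at 49.7 and 9.69 FPKM in the WT mice against 5.52 and 1.91 in the KO mice, is uncertain.

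The scavenger receptor genes did not share one order of libraries. Msr1, on chromosome 8 from 40667054 to 40728032, encodes the class A scavenger receptor and had 7.53 and 8.32 FPKM in the WT mice against 2.33 and 0.334 in the KO mice. Its WT values lay close together, both KO values were far below them, and its log2 fold change of -2.08 had a standard error of 0.47 (adjusted p = 0.248 by limma). Without KO replicate 2 it was -1.42. Mrc1, on chromosome 2 from 14151041 to 14253650, encodes the mannose receptor CD206. It had 14.7 and 12.6 FPKM in the WT mice, 12.7 FPKM in KO replicate 1 and 1.23 FPKM in KO replicate 2. KO replicate 1 lay between the WT libraries, so the log2 fold change of -1.40 (SE 0.85, limma adjusted p = 0.415) rested on KO replicate 2 and was -0.10 without it. Cd163, on chromosome 6 from 124254669 to 124280545, encodes the receptor for haptoglobin-hemoglobin complexes. It was the lowest of the 10 genes in WT, at 2.02 and 2.93 FPKM, and had 4.14 FPKM in KO replicate 1 and 0.379 FPKM in KO replicate 2. KO replicate 1 was thus the highest library and KO replicate 2 the lowest. The log2 fold change was -0.37 (SE 0.65, limma adjusted p = 0.769) and 0.58 without KO replicate 2.

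Depth was estimated from the spacing of low values in genes with a single transcript. The FPKM of 1 fragment on a transcript of 1 kb was 0.0573 and 0.0699 FPKM in the WT mice against 0.0734 and 0.0781 in the KO mice. On the longest annotated transcript, the KO replicate 2 values correspond to about 15.6 fragments of Msr1, 21.8 of Cd163, 23.3 of Aif1 and 34.8 of Adgre1. In the other libraries the lowest estimate was 116 fragments, for Msr1 in KO replicate 1. These numbers are approximate, because reads may come from shorter transcripts, and no interval was derived from them.

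The order of the genes by level was partly resolved in WT skin, where 3 of 9 neighboring pairs overlapped, and hardly in KO skin, where 8 of 9 did. Because FPKM are per length, levels can be set beside each other. In WT mice the mean levels ran from Lyz2 (1148 FPKM) through Cd68 (110.3 FPKM), Spi1 (43.4 FPKM), Csf1r (40.6 FPKM), Aif1 (31.0 FPKM), Adgre1 (18.3 FPKM), Mrc1 (13.6 FPKM), Csf1 (12.9 FPKM) and Msr1 (7.93 FPKM) to Cd163 (2.47 FPKM). The libraries of neighbors in this order overlapped for Spi1 and Csf1r, for Csf1r and Aif1, and for Mrc1 and Csf1. In KO mice Lyz2 (231.7 ± 254.4 FPKM, SD, n = 2) alone was separate from its neighbor, Cd68 (23.1 ± 21.7 FPKM, SD, n = 2). The mean level of Csf1 in KO mice, 9.51 ± 2.55 FPKM (SD, n = 2), was next to that of its receptor gene Csf1r, 9.09 ± 10.2 FPKM (SD, n = 2).

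KO replicate 1, the KO library with fibroblast and endothelial marker sums above their WT means, was also lower in most of these genes. It held 29.4% of the WT mean of Msr1, 34.9% of Cd68, 35.8% of Lyz2, 36.6% of Spi1, 40.1% of Csf1r, 47.0% of Adgre1 and 51.5% of Aif1. It held 87.4% of Csf1, 92.9% of Mrc1 and 168% of Cd163. KO replicate 1 was below both WT libraries in 8 of the 10 genes, against 26.6% of tested genes, and KO replicate 2 in 10 of 10, against 37% of tested genes. Fitted without KO replicate 2, which leaves 1 KO library that is assumed to vary like the WT libraries, 5 of the 10 genes (Csf1r, Cd68, Msr1, Spi1 and Lyz2) had an unadjusted p under 0.05 and a log2 fold change under -1, against 2.56% of tested genes. None of the 10 passed the adjusted threshold in that fit, where 0.115% of tested genes were called lower. Fitted without KO replicate 1 instead, 9 of the 10 genes, all except Csf1, were called lower, against 9.2% of tested genes, and the median log2 fold change was -3.14, against -1.13 without KO replicate 2. The size of the difference thus depended on which KO mouse was used, and for Cd163 its direction as well.

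**Figure D2:**
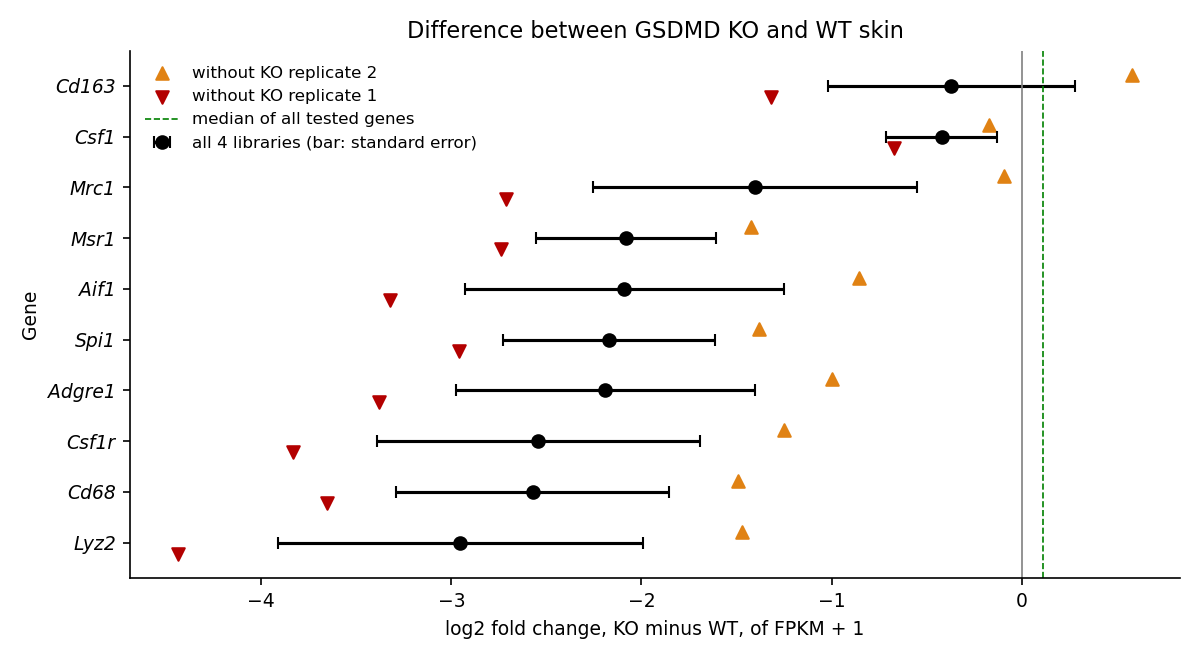
Log2 fold change of each gene, KO minus WT, on the log2(FPKM + 1) scale, with all 4 libraries (black, bar: standard error from limma) and with 1 KO library left out (triangles). Without KO replicate 2, Mrc1 and Csf1 lie near 0 and Cd163 lies above it, at 0.58, while Cd68, Lyz2, Msr1, Spi1 and Csf1r stay below -1.

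Set against the fibroblast and endothelial markers of the same library, a scale chosen after the data had been seen, most of the macrophage genes were lower in both KO libraries. On this scale the median of all tested genes was 1.11 higher in KO than in WT mice, and that of the 10 genes was -1.13. The mean log2(FPKM + 1) level of these 13 markers was 4.196 and 4.18 in WT, 4.72 in KO replicate 1 and 1.66 in KO replicate 2. Relative to it, the KO libraries were each under the lower WT library in 8 of the 10 genes, against 1.35% of tested genes, and the exceptions were Csf1 and Cd163. For Lyz2 the log2 level above the markers was 6.10 and 5.84 in WT and 3.97 and 4.06 in KO replicates 1 and 2. The KO libraries, 7.94-fold apart in FPKM, were thus nearly equal for Lyz2, and in no other of the 10 genes were they as close. In every gene KO replicate 2 lay above KO replicate 1 on this scale. In KO replicates 1 and 2 Msr1 had -2.99 and -1.24, and Spi1 had -0.65 and 0.84. For Cd68 the log2 level above the markers was 2.46 and 2.75 in WT and 0.58 and 1.48 in KO replicates 1 and 2. For Mrc1 the 4 values were closer, at -0.22 and -0.42 in WT and -0.95 and -0.50 in KO libraries, and KO replicate 2 lay closer to the lower WT library than the WT libraries lay to each other. The same was true of Spi1, Msr1 and Aif1, so it held for 4 of the 8 genes, while in KO replicate 1 it held for 0 of the 8. No gene passed the adjusted threshold by limma on this scale, and with an unadjusted p under 0.05 and a log2 difference beyond 1, 37 genes were higher and 0 lower.

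Relative to Ptprc, which encodes the CD45 antigen of all leukocytes and had 10.6 and 8.93 FPKM in the WT mice against 3.98 and 1.00 in the KO mice, the groups overlapped for 5 of the 10 genes. The log2 ratio of Csf1r to Ptprc (both as FPKM + 1) was 1.62 and 2.26 in WT and 1.80 and 0.53 in KO replicates 1 and 2, and that of Spi1 was 1.71 and 2.36 in WT and 1.76 and 1.496 in KO replicates 1 and 2. In both genes KO replicate 1 lay within the WT range. Both KO libraries were lower than WT for Lyz2, Cd68 and Msr1, 3 of the 10 genes, against 0.553% of tested genes. They lay above WT for Csf1 and Cd163, an order that was the common one, since 93.9% of tested genes had it. For Cd68 the order held with pseudocounts of 1 and 0.5 and not with 0.1 or none, where its plain ratio to Ptprc was 9.66 in KO replicate 1 and 9.39 in WT replicate 1. For Lyz2 the KO minus WT difference of the log2 ratio was -1.19, with 6.76 and 6.71 in WT and 6.37 and 4.72 in KO replicates 1 and 2. Leaving out KO replicate 2 brought it to -0.36, and leaving out KO replicate 1 to -2.01. Over the 19 ratios to Ptprc and Cd68, no exact two-sided permutation p was below 0.333, the smallest this design allows, and the smallest adjusted p was 0.576.

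Within the macrophage genes, Csf1, Mrc1, Cd163 and, by less, Spi1 made up more relative to Cd68 in KO than in WT skin. The level of Cd163 was 2.02% and 2.42% of that of Cd68 in WT libraries, 10.8% in KO replicate 1 and 4.86% in KO replicate 2. For Mrc1 the share was 14.8% and 10.4% in WT and 32.9% and 15.8% in KO replicates 1 and 2. Both KO libraries were thus above both WT libraries for either receptor. On the log2 scale the ratio differed by 2.20 for Cd163 and by 1.17 for Mrc1 (exact two-sided permutation p = 0.333 for each, adjusted p = 0.576). With a pseudocount of 0.1 in place of 1, these differences were 1.83 and 0.92. Csf1 stood at 14.5% and 9.48% of Cd68 in WT and at 29.4% and 98.8% in KO replicates 1 and 2. By contrast, Csf1r stayed at 34.7% and 38.6% in WT and at 42.4% and 24.3% in KO replicates 1 and 2, with the groups overlapping. For Msr1 the share was lower in KO mice, with 7.55% and 6.88% in WT and 6.05% and 4.28% in KO replicates 1 and 2, but on the log2 scale with the pseudocount of 1 the groups overlapped and the difference was 0.49, or 0.07 when KO replicate 2 was left out. Spi1 was above WT on both scales, at 37.1% and 41.2% in WT and 41.3% and 59.7% in KO replicates 1 and 2, though KO replicate 1 and the higher WT library nearly met. Adgre1 and Aif1 were separate on the log2 scale and overlapped as plain shares. On the log2 scale, 6 of the 9 genes lay above WT relative to Cd68 in both KO libraries, while 97.7% of all tested genes did, so an order of this kind is not particular to Mrc1 or Cd163.

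**Figure D3:**
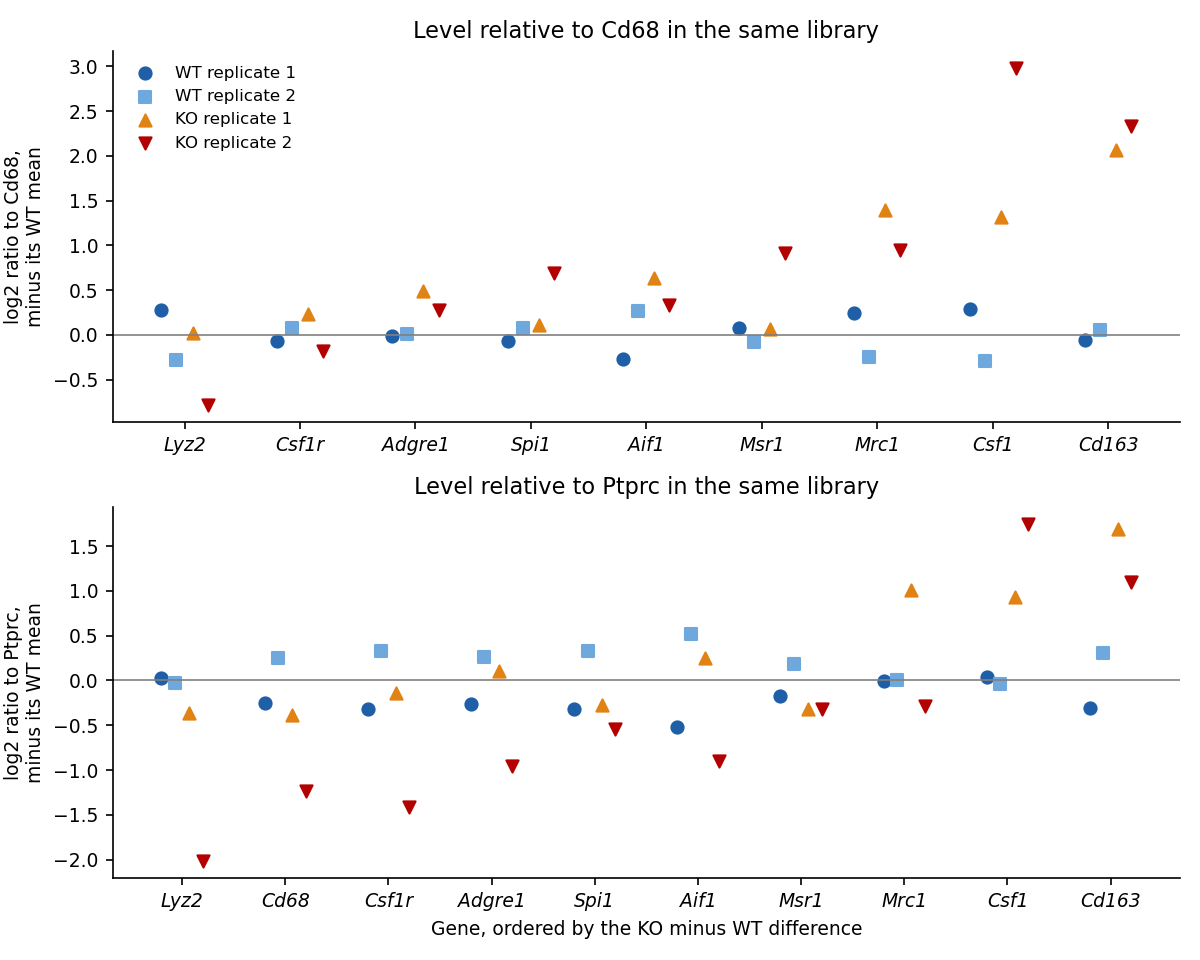
Log2 ratio of each gene to Cd68 (upper panel) and to Ptprc (lower panel) in the same library, computed from FPKM + 1 and shown as the difference from its WT mean, with 1 point per library. Relative to Cd68, both KO points of Cd163 and Mrc1 lie above both WT points, and relative to Ptprc those of Lyz2 lie below.

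The promoters of 4 of these genes are shown because Cd68 and Lyz2 were lower in both KO libraries while Mrc1 and Cd163 were not below both WT libraries in KO replicate 1. The sequences are the 250 bases before the start of transcription, from RefSeq on GRCm38.p6 (a later build than the mm9 of the table), and 6 of the 10 genes matched an entry. Capitals mark the letters GAGGAA, a core that PU.1 can bind, or their reverse complement TTCCTC.
Cd68, chr11:69666171-69666420, minus strand: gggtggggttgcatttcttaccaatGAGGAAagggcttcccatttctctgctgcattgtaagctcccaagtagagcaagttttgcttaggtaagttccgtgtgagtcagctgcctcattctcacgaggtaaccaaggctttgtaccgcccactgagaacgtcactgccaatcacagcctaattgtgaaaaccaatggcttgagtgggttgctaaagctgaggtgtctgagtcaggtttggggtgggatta
Lyz2, chr10:117282273-117282522, minus strand: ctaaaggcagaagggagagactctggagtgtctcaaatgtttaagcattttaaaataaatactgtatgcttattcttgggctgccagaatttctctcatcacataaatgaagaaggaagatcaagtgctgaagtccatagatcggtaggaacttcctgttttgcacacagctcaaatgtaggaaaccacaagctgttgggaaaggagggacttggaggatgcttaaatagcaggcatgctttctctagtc
Mrc1, chr2:14229164-14229413, plus strand: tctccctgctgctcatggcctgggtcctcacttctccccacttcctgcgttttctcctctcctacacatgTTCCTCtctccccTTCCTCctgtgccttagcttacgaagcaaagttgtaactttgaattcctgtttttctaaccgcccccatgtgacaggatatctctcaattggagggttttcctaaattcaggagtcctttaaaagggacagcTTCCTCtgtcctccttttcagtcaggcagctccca
Cd163, chr6:124304401-124304650, plus strand: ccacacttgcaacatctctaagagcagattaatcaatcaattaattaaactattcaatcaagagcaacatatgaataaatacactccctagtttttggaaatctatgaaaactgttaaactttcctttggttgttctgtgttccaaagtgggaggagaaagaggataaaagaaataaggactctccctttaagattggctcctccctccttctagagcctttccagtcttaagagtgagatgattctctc

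GAGGAA was found on either strand 1 time in the window of Cd68, 3 times in that of Mrc1 and 1 time in that of Aif1, and not in those of Lyz2, Cd163 and Csf1. Of 32536 promoter windows of this length in the table, 23.4% hold it. TGANTCA, a core of AP-1 sites, was found in Cd68 alone of the 6, at 2 places starting 149 and 24 bases before the start, and 6.73% of all windows hold it. TTNNNCAA, a loose C/EBP core that was searched on both strands, was present 2 times in Cd68 and 1 time each in Lyz2 and Cd163, and in 33.3% of all windows. None of these matches overlaps another in the Cd68 window. The matches describe letters in a window and do not show that a factor was bound, and they did not divide the genes that were lower in KO replicate 1 from those that were not.

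The other genes of the CSF1R pathway, taken from lists that share no gene with the 10, included several with the same order of libraries as Csf1r. Of 7 genes of the colony-stimulating factor family 5 were tested, limma called 0, and 2 had an unadjusted p under 0.05 with a log2 fold change under -1, a rule that 4.14% of all tested genes passed. Il34, the other ligand of CSF1R, which keratinocytes make, had 8.62 and 7.82 FPKM in the WT mice against 11.9 and 11.6 in the KO mice, so it was higher in both KO mice (log2 fold change 0.47, SE 0.23, limma adjusted p = 0.349). Csf2ra, the GM-CSF receptor alpha chain, had 19.6 and 28.8 FPKM in the WT mice against 7.45 and 3.10 in the KO mice. Of 12 tested genes for adaptors and kinases that act with CSF1R, limma called 0, 7 passed that rule (4.14% of all tested genes), and 11 were lower in KO replicate 1 than in both WT libraries (26.6% of all tested genes). Tyrobp, an adaptor shared by many myeloid receptors, had 164.9 and 205.2 FPKM in the WT mice against 75.1 and 15.01 in the KO mice. Fgr, a Src-family kinase of myeloid cells, stood at 10.5 and 11.9 FPKM in the WT mice against 2.24 and 0.556 in the KO mice. Grb2, an adaptor used by most cells, differed little, with 37.7 and 33.4 FPKM in the WT mice against 31.1 and 23.9 in the KO mice, and Plcg2 had a log2 fold change of 0.13 that turned to -0.12 when KO replicate 2 was left out. The median log2 fold change of this list was -1.56, and -0.90 without KO replicate 2.

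Other transcription factors of the myeloid program differed in direction, with 5 of the tested genes lower and 4 higher in KO mice. Of 11 such genes 9 were tested, limma called 0, 1 was lower by the unadjusted rule (4.14% of all tested genes), and their median log2 fold change was -0.34. Leaving out KO replicate 2 gave a median of -0.07, and leaving out KO replicate 1 gave -0.91. Irf8, which directs monocyte development, had 9.48 and 14.5 FPKM in the WT mice against 6.69 and 1.80 in the KO mice, the largest difference downward of the list (log2 fold change -1.46, and -0.73 when KO replicate 2 was left out). Cebpb, which acts in macrophages and also in keratinocytes, went the other way, with 21.97 and 40.9 FPKM in the WT mice against 50.8 and 63.7 in the KO mice. Cebpa, at 66.2 and 126.9 FPKM in the WT mice against 116.5 and 114.3 in the KO mice, lay within the WT range in both KO mice.

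Scavenger receptors outside the 10 genes differed between the KO libraries. Of 16 genes 12 were tested, limma called 0, and 0 had an unadjusted p under 0.05 with a log2 fold change beyond 1 in either direction. Their median log2 fold change was -0.09, which became 0.03 when KO replicate 2 was left out and -1.06 when KO replicate 1 was. KO replicate 2 was below both WT libraries in 10 of the 12 genes, against 37% of all tested genes, and KO replicate 1 in 4, near the 26.6% of all tested genes. Cd36, a fatty acid and lipoprotein receptor that adipocytes and endothelial cells also carry, had 67.3 and 98.8 FPKM in the WT mice against 59.7 and 26.2 in the KO mice. With all libraries Lrp1 had the lowest log2 fold change of the list, -1.43, and Cxcl16 the highest, 0.23, but leaving out KO replicate 2 gave -0.66 and 0.026, and Scara5 was then higher, at 1.21. Scarb2, a protein of the lysosome membrane, stayed at 28.9 to 32.7 FPKM in all libraries. Of the mannose receptor family only Mrc2 was tested, with 3.98 and 3.76 FPKM in the WT mice against 7.36 and 1.99 in the KO mice, so that, as for Cd163, KO replicate 1 was the highest library and KO replicate 2 the lowest. Among 11 tested genes for the uptake of dying cells the median log2 fold change was -0.39. Its sign turned with the KO library left out, at 0.11 without KO replicate 2 and -0.89 without KO replicate 1. With an unadjusted p under 0.05, 2 were lower by more than 1 (4.14% of all tested genes) and 1 was higher by more than 1 (6.16% of all tested genes). Rac2, a GTPase of blood cells, had the lowest of these, -2.20 (-1.30 when KO replicate 2 was left out), and Tyro3, a receptor tyrosine kinase that binds Gas6, the highest, 1.04, with 6.88 and 5.70 FPKM in the WT mice against 12.95 and 15.1 in the KO mice. Gas6 and Mfge8, the most abundant of the list, had log2 fold changes of -0.39 and -0.94, which turned to 0.12 and 0.07 when KO replicate 2 was left out. Limma called 0 genes of either list.

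Genes typical of monocytes and of resident macrophages were placed beside Mrc1 and Cd163. All 9 monocyte genes were below both WT libraries in KO replicate 1 and in KO replicate 2, an order that 20.5% of all tested genes had, with a median log2 fold change of -2.15 and of -1.09 without KO replicate 2. Itgam, the integrin alpha M chain that neutrophils also carry, had 37.5 and 35.7 FPKM in the WT mice against 6.30 and 0.550 in the KO mice (log2 fold change -3.48, SE 0.74, limma adjusted p = 0.248). Plac8 stood at 85.0 and 67.2 FPKM in the WT mice against 54.1 and 5.21 in the KO mice, and Nr4a1, a transcription factor gene that many cells induce, differed least, with a log2 fold change of -0.73. Of 10 resident macrophage genes 9 were tested, and 6 of them were below both WT libraries in KO replicate 1 and 9 in KO replicate 2, against 26.6% and 37% of all tested genes. The complement genes C1qa and C1qb had 224 and 264 FPKM and 232 and 310 FPKM in the WT mice, against 143 and 118 FPKM in KO replicate 1 and 8.06 and 8.89 FPKM in KO replicate 2. F13a1, the factor XIII A chain, had 15.4 and 13.6 FPKM in the WT mice and 15.4 FPKM in KO replicate 1, and Lyve1, a hyaluronan receptor, had 4.14 and 0.730 FPKM in the WT mice and 4.60 FPKM in KO replicate 1. In KO replicate 1 these genes and Cbr2, with 54.1 and 89.7 FPKM in the WT mice and 64.9 FPKM in that library, were thus not below both WT libraries, as was the case for Mrc1 and Cd163. In KO replicate 2 F13a1 had 1.42 FPKM, Lyve1 0.517 FPKM and Cbr2 31.8 FPKM. The median log2 fold change of the resident list was -2.22, and -0.47 without KO replicate 2. Limma called 0 genes of either list, while 7 monocyte and 2 resident macrophage genes had an unadjusted p under 0.05 with a log2 fold change under -1, against 4.14% of all tested genes. A difference between the lists was not tested.

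Of relatives of the 10 genes by sequence or function, 5 of 7 were tested, limma called 0, and 2 (Lyz1 and Adgre5) had an unadjusted p under 0.05 with a log2 fold change under -1, against 4.14% of all tested genes. Lamp1, which encodes a lysosomal membrane protein of the same family as CD68 that all cells make, had 326.5 and 368.7 FPKM in the WT mice against 277.7 and 206.8 in the KO mice, a smaller difference than that of Cd68 (log2 fold change -0.53, SE 0.27, limma adjusted p = 0.357). Lamp2 had a log2 fold change of 0.30.

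Markers of other blood cells give the setting of these values. Of 6 genes shared by leukocytes limma called 0, and 5 had an unadjusted p under 0.05 with a log2 fold change under -1, against 4.14% of all tested genes. The list summed to 453.9 and 536.4 FPKM in the WT mice against 244.5 and 129.9 in the KO mice. Arhgdib alone held 80.4% of the sum in KO replicate 2, and the other 5 genes summed to 355.2 and 416.1 FPKM in WT, to 161.9 FPKM in KO replicate 1 and to 25.4 FPKM in KO replicate 2. Of 6 neutrophil genes, Ly6g and Mpo were at 0 in both KO libraries. They were near 0 in WT as well, at 0.238 and 0.0928 FPKM for Ly6g and 0.0227 and 0.0278 FPKM for Mpo. The 6 genes summed to 758.3 and 618.7 FPKM in the WT mice against 307.1 and 148.6 in the KO mice. S100a8 and S100a9, which keratinocytes also make, held 98.5% to 99.5% of these sums. The other 4 genes summed to 5.96 and 9.22 FPKM in WT, to 3.67 FPKM in KO replicate 1 and to 0.741 FPKM in KO replicate 2. Of 6 T cell genes 5 are in the table, and they summed to 12.0 and 8.65 FPKM in the WT mice, 10.4 FPKM in KO replicate 1 and 3.43 FPKM in KO replicate 2. The T cell sum in KO replicate 1 was thus within the WT range, but its genes, all at a few FPKM, went opposite ways. In that library Cd3g had 3.81 FPKM (1.86 and 2.19 in WT) and Cd2 had 1.87 FPKM (5.51 and 2.60 in WT). Of 4 tested T cell genes 1, Cd2, had an unadjusted p under 0.05 with a log2 fold change under -1, against 4.14% of all tested genes. The resident macrophage and monocyte sums in KO replicate 1 were below their WT range. Most of that resident sum, 495.4 FPKM, came from C1qa, C1qb and C1qc, and its place below WT rested largely on them. The 8 dendritic and Langerhans cell genes summed to 42.9 and 22.9 FPKM in the WT mice against 78.2 and 104.8 in the KO mice, but Epcam, which keratinocytes and hair follicles also express, made up 24.8 and 11.2 FPKM of the WT sums and 68.6 and 101.5 FPKM of the KO sums. The sum of the other 7 genes was lower in KO mice, at 18.1 and 11.7 FPKM in WT, 9.67 FPKM in KO replicate 1 and 3.31 FPKM in KO replicate 2. Hair follicle genes, 12 in number, summed to 10.2 and 1.72 FPKM in the WT mice and to 358.5 and 19.3 FPKM in KO replicates 1 and 2, and 5 skeletal muscle genes to 19954 and 18908 FPKM in the WT mice and to 12235 and 12493 FPKM in KO replicates 1 and 2. The part of any of these in the macrophage values was not tested.

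**Figure D4:**
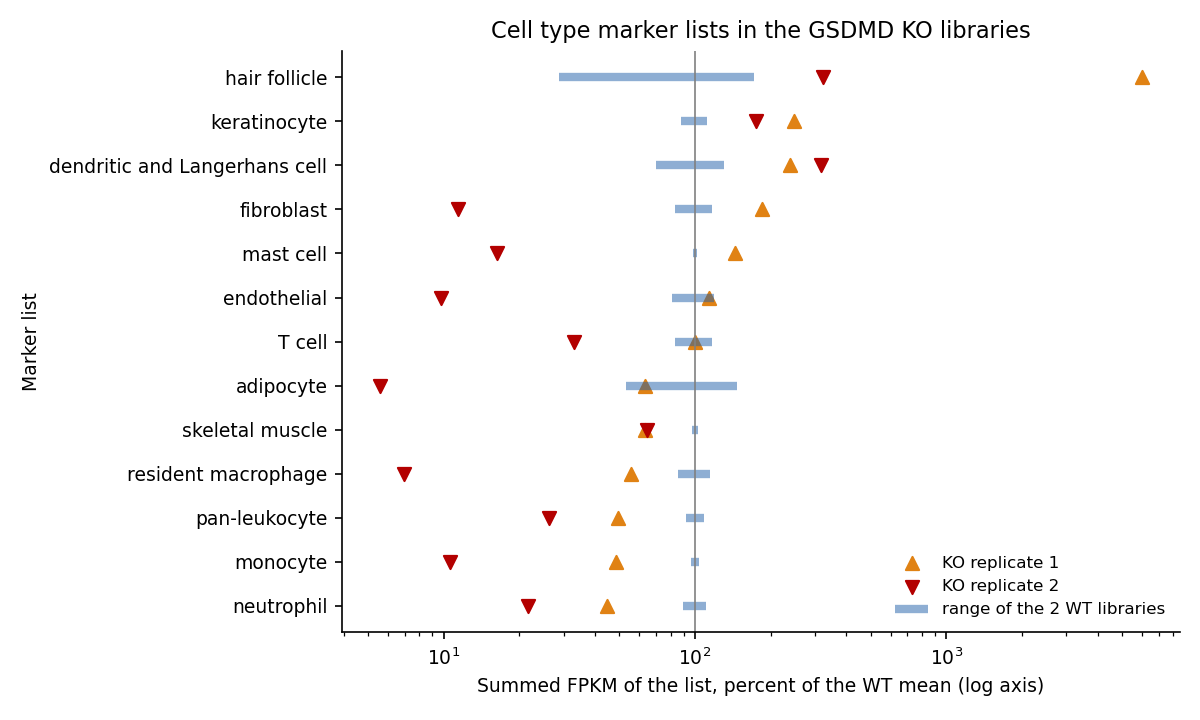
Summed FPKM of each marker list in the KO libraries, as a percent of the WT mean (log axis), with the range of the WT libraries as a bar. In KO replicate 2 fibroblast, endothelial, adipocyte, mast cell, monocyte and resident macrophage lists all lie between 5.58% and 16.2%, while in KO replicate 1 the monocyte, neutrophil, pan-leukocyte and resident macrophage lists lie between 44.6% and 55.8% and the fibroblast list at 185%.

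The genes closest to the mean pattern of the 10 over the 4 libraries were Lyn, Sirpa, Csf2rb, Nrros and Clec4a3. Likeness was the root mean square distance between log2(FPKM + 1) profiles centred on their means, and it was 0.06 for Lyn and 0.09 for the other 4. Lyn had 11.8 and 14.1 FPKM in the WT mice against 7.21 and 0.760 in the KO mice. Csf2rb, the shared beta chain of the GM-CSF, IL-3 and IL-5 receptors, had 14.1 and 18.0 FPKM in the WT mice against 9.52 and 1.35 in the KO mice. Among the 10 genes themselves, Adgre1 (0.20) and Spi1 (0.23) lay closest to the mean pattern, and Csf1 (0.93), Cd163 (0.76) and Lyz2 (0.65) lay farthest from it.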

How the data were processed

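Skin RNA of 2 GSDMD KO and 2 WT mice was analysed. The submitters' processing notes name mm9, HISAT2 2.0.1 and StringTie 2.0.6. Although the paper's methods describe read counts and DESeq2, the deposited table holds FPKM: 99.993% of values above 0 are not whole, and library sums were 448446 to 462117 FPKM. Testing used log2(FPKM + 1) with no added scaling. Limma 3.58.1 (R 4.3.3, mean-variance trend, genotype as the only term) was fitted to the 13027 genes that reached 1 FPKM in 2 or more libraries, with Benjamini-Hochberg adjustment over all of them. Ratios to Ptprc and Cd68 were compared by exact permutation over libraries. The 10 genes and the lists were chosen with earlier results of these data known. Named in the text are the 10 genes, Gsdmd, the 5 nearest profiles and, of each list, the most abundant and the most different tested genes. Other list genes (Cbr2, C1qc, F13a1, Ptprc, Epcam, Cd207, Ly6g, Mpo, Adgre5, S100a8, S100a9, Arhgdib, Scara5) were named after their values were seen. Loci were matched to GENCODE vM1 (mm9). Same-numbered WT and KO libraries were not treated as pairs: their deviations correlated at -0.20, and nothing in the labels ties a number to a litter or date. Tables were made with Python 3.11.15, pandas 2.3.3 and Biopython 1.88. Alternatives were other pseudocounts, filters and scalings, no trend, a replicate block, each library left out and, added later, a crossed block and levels relative to dermal markers.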

Additional observations from a re-analysis of the deposited data

How the results depend on the processing

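The median log2 fold change of the 10 genes stayed below 0 under every alternative run: from -2.49 with a pseudocount of 0.1 to -2.13 without a filter, with TPM, upper-quartile and median-ratio scaling at -2.32, -2.24 and -2.25, and at -1.13 relative to dermal markers. Leaving out 1 library gave -3.14 to -1.13. Median-ratio scaling moved the median of all genes from 0.11 to -0.01. With the replicate block, the median of the 10 genes was -2.13, 0 genes were called, and no call changed. The number of genes called was 0 under every alternative except the omission of a KO library, with a range of 0 to 2058: 43 without KO replicate 2 and 2058 without KO replicate 1. At an unadjusted p under 0.05 with a log2 fold change beyond 1 in size, 802 genes were higher and 539 lower. Without WT replicate 2 these were 266 and 242, without KO replicate 1 they were 1412 and 1605, without KO replicate 2 the lower genes were 333, and relative to dermal markers they were 37 and 0. With the replicate numbers crossed in the block they were 819 and 681, and 0 genes were called. Csf1 and Cd163 changed sign relative to dermal markers (0.57 and 0.63). The median log2 ratio to Cd68, 0.48, was 0.38 and 0.32 with pseudocounts of 0.5 and 0.1, and 0.37 to 0.70 with 1 library left out. Relative to Cd68, Csf1r turned to -0.064 and -0.16 with these pseudocounts, Adgre1 to -0.021 and Msr1 to -0.31 with 0.1. Leaving out 1 library gave ranges across 0 for Cd163 (-1.32 to 0.58), for Csf1r and Lyz2 relative to Cd68 (-0.18 to 0.24 and -0.78 to 0.019), and for Aif1, Mrc1 and Adgre1 relative to Ptprc (-0.90 to 0.25, -0.29 to 1.01 and -0.96 to 0.11), with an end of each range set by the omission of KO replicate 1 or 2. The cause of these changes was not tested. Of the low values, those of Msr1, Cd163, Aif1 and Adgre1 in KO replicate 2 rest on the fewest fragments.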
